A study of Homo sapiens with 42 samples.

Results

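Glycolysis and hypoxia genes were followed in head and neck cancer cells given cetuximab, with 41 genes chosen by name as glucose and lactate transporters, glycolytic enzymes, regulators of glycolysis, regulators of the hypoxia response and hypoxia targets. Of these, 39 were measured among 19775 genes, each by the probe set annotated to that gene alone with the highest mean over 42 arrays. CA9 and SLC16A3 are not listed in the probe annotation used. The 39 genes comprised 2 transporters, 16 glycolytic enzymes, 4 glycolysis regulators, 6 hypoxia regulators and 11 hypoxia targets. The mean of each over the arrays was above 5.13, the median of all deposited log2 values.

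Glycolysis splits glucose in the cytoplasm, and cancer cells commonly run it fast and turn pyruvate into lactate even with oxygen present. When oxygen is low, the prolyl hydroxylases EGLN1 and EGLN3 no longer mark HIF-1alpha for destruction, and the stabilised factor pairs with ARNT and binds a short DNA core in the promoters of many glycolytic enzymes, of SLC2A1 and of VEGFA. Growth factor receptors, through PI3K, mTOR, MAPK and MYC, act on many of the same genes without any lack of oxygen.

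The panel held 6 head and neck squamous carcinoma (HNSCC) lines with both conditions. SCC25, SQ20B and SCC61 are HPV-negative, and SCC047, SCC090 and 93VU147T are HPV-positive. The study describes SQ20B as EGFR-amplified and SCC61 as PIK3CA-mutant. Cetuximab (CTX), an antibody that blocks ligand binding to EGFR, was given at 100 nM for 24 hours, and controls were labelled untreated while the methods name PBS. Each group had 3 arrays, giving 36 in the comparisons. A further 3 arrays of CTX-treated SCC1 cells, an HPV-negative HNSCC line, and 3 of untreated HaCaT cells, an immortalised keratinocyte line, had no partner group and are described only. Each line is 1 culture model, and nothing in the sources used places the 3 arrays in separate cultures. The p-values then rest on a spread that may be technical.

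All 8 genes of a list of EGFR and ERK output, DUSP6 and EGR1 among them, were lower in the mean of the 6 lines, and DUSP6 was lower in each line. By line, all 8 were lower in SCC25, SQ20B and SCC61, 6 in 93VU147T, 4 in SCC047, where 1 was higher, and 3 in SCC090. Of 5 measured markers of squamous epithelium, all lay above the median of all values in every group, with the exception of 1 in untreated SQ20B. Of 3 measured leukocyte markers 1 lay below that median in every group. In the labels the control arrays of the 6 lines carry numbers 1 to 18 and the CTX arrays 19 to 36, so array order and treatment cannot be told apart. SQ20B control replicate 3 lies in another scan batch. The difference between 3' and 5' probe sets of ACTB, a measure of RNA integrity, was higher with CTX by 0.29 in SQ20B, 0.11 in SCC047 and 0.0674 in SCC25 with no overlap between groups. That of GAPDH was also apart in SQ20B (0.0749) and SCC047 (0.0402). The part of RNA integrity in the changes of those lines was not tested.

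The promoters of 3 enzymes that rose in SCC61 and of HK2, which fell most there, are shown because they hold the core that HIF-1 and related factors bind. RefSeq windows of 300 bases on GRCh38.p14, 250 before and 50 after a start site, were listed for 35 of the 39 genes, and SLC2A3, VEGFA, BNIP3L and NDRG1 had no entry. Capitals mark the core ACGTG or its reverse complement CACGT, and CACGTG, which holds both, is also the E-box of MYC, MXI1 and BHLHE40. For TPI1, LDHA and HK2, which have 2 windows each, the one with most matches is given.
PGK1, chrX:78103998-78104297, + strand: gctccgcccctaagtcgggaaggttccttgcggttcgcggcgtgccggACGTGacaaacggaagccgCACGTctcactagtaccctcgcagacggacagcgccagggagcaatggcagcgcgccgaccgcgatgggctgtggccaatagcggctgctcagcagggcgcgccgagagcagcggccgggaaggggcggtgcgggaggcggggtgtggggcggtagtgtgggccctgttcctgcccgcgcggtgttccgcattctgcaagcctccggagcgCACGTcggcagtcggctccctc
TPI1, chr12:6867855-6868154, + strand: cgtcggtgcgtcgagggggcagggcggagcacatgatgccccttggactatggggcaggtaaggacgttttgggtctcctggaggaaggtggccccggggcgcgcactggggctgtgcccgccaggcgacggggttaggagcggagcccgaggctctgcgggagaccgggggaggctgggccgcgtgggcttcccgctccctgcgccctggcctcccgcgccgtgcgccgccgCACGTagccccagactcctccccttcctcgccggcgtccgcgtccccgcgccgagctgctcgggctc
LDHA, chr11:18394313-18394612, + strand: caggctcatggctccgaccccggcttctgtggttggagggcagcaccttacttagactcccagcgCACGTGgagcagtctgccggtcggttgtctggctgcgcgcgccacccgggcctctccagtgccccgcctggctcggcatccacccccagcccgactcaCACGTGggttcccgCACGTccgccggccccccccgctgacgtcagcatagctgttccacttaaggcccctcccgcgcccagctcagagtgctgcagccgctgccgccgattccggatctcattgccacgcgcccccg
HK2, chr2:74834920-74835219, + strand: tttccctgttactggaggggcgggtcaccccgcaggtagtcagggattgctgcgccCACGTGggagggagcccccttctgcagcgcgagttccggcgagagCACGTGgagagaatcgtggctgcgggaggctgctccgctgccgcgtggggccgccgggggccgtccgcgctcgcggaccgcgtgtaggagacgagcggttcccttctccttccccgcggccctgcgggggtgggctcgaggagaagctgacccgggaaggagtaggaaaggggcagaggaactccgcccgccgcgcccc
PGK1 had 3 such places, TPI1 1, LDHA 3 and HK2 2, and both places of HK2 were the palindrome CACGTG. The core was present in 27 of 63 windows of the measured genes (42.9%) and in 7518 of all 35116 windows (21.4%). By gene, 11 of 16 enzymes had it in at least 1 window, as did 6790 of all 27305 genes (24.9%), and genes with more windows have more chances to hold it. PGAM1, ENO1, PKM, PFKL and HK1 had none in these windows. A match is a description of letters and says nothing of binding in these cells.

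With cetuximab more of the 39 genes were higher than lower in the mean of the 6 lines, by small amounts that differed between lines. In limma, fitted over all genes, 25 were higher and 6 lower in that mean (adjusted p under 0.05), where 22.8% of all genes were higher and 23.1% lower. The median change of the 39 was 0.14 on the log2 scale against -0.02 for all genes. The largest mean rise was in EGLN1, the main HIF prolyl hydroxylase (0.47, SE 0.05, adjusted p = 5.61e-09), and the largest fall in VEGFA, the endothelial growth factor (-0.87, SE 0.06, adjusted p = 3.15e-13). The rank of EGLN1 rests on the probe set used, since its other sets gave mean changes of 0.17, 0.14 and -0.01. VEGFA alone moved by more than 0.5 in the mean. The change differed between lines for 37 of 39 genes, with PFKP and BNIP3L the exceptions, beside 59% of all genes.

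**Figure D1:**
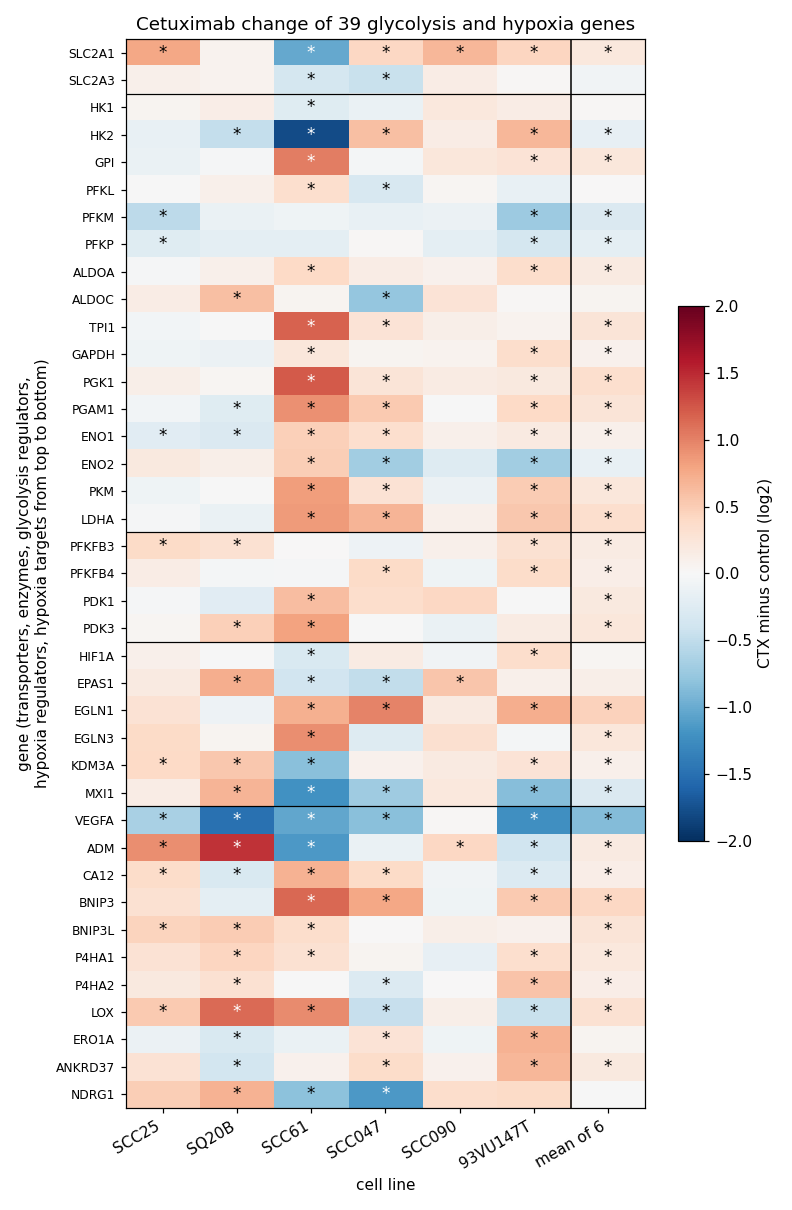
Colour gives the CTX minus control difference (log2) of 39 genes (rows, by role) in 6 lines and in their mean, and an asterisk marks an adjusted p under 0.05 in limma. VEGFA was blue in every line but SCC090, while ADM, SLC2A1, MXI1 and HK2 changed colour between lines.

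The counts differed by line. In SCC61 20 of the 39 genes were higher and 11 lower, beside 24.4% and 19.8% of all genes. In 93VU147T 20 were higher and 8 lower (15.8% and 18.8% of all genes), in SCC047 14 and 10 (17.3% and 19%), and in SQ20B 12 and 7 (18.4% and 14.9%). In SCC25 7 were higher and 4 lower (8.66% and 7.3%), and in SCC090 3 were higher and 0 lower (0.516% and 0.885%). The 3 called in SCC090 were SLC2A1, EPAS1 and ADM, and none of them was called without SCC090 control replicate 1. Without SCC25 control replicate 3, SCC25 had 7 called genes in place of 11.

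VEGFA fell in 5 of the 6 lines. In SQ20B the control arrays averaged 9.88 ± 0.16 and the CTX arrays 8.38 ± 0.08 (log2, SD, n = 3 arrays each), a 2.82-fold fall (-1.50, SE 0.14, adjusted p = 9.31e-10 in limma), and the lowest control, 9.69, lay above the highest CTX array, 8.46. In 93VU147T the controls read 10.49, 10.68 and 11.26 and the CTX arrays 9.61, 9.38 and 9.74 (-1.23, SE 0.14, adjusted p = 5.29e-08). Neither pair of groups overlapped. In SCC61 the controls of 10.77, 10.57 and 10.61 lay above CTX arrays of 9.50, 9.73 and 9.58 (-1.04), and the change was -0.83 in SCC047 and -0.65 in SCC25. In SCC090 the controls of 8.51, 8.82 and 9.20 spanned the CTX arrays of 8.97, 8.73 and 8.91 (0.03, adjusted p = 0.973). SCC090 also had the lowest untreated mean of VEGFA of the 6 lines, and its first control array was the lowest of its 3.

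VEGFA was the 1 member called in the same direction in at least 5 lines, beside 0.506% of all genes. All 4 of its probe sets gave negative values in the same 5 lines. Set against VEGFA within the same arrays, each of the other 38 genes had a higher mean change, the nearest being PFKM (0.59 above VEGFA, SE 0.08) and MXI1 (0.59, SE 0.07), but so had 99.8% of all genes, so this count is not particular to the list. Of the other hypoxia targets, ADM, LOX and CA12 each rose in 3 lines and fell in 2, and BNIP3, BNIP3L and P4HA1 each rose in 3 and were called lower in none.

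**Figure D2:**
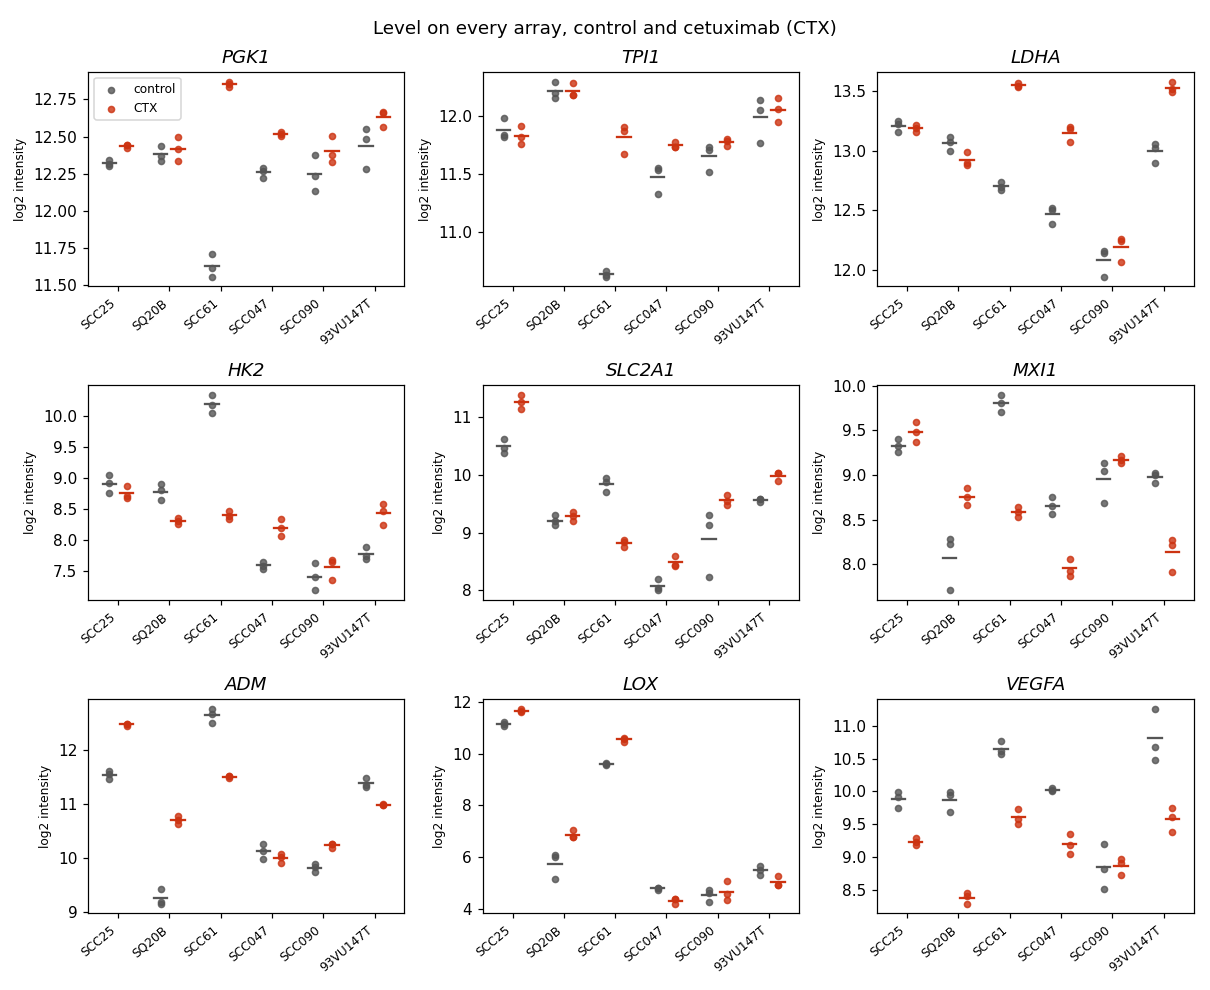
Each point is 1 array (log2 intensity, vertical axes not starting at 0) and each bar the mean of 3, with controls in grey and CTX in red for 6 lines and 9 genes. VEGFA control and CTX arrays were apart in 5 lines, and in SCC61 PGK1, TPI1 and LDHA were higher with CTX while HK2, SLC2A1, MXI1 and ADM were lower.

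The glycolytic enzymes moved most in SCC61, the PIK3CA-mutant line. There 11 of 16 were higher and 2, HK1 and HK2, lower, beside 24.4% and 19.8% of all genes. Their median was 0.43 against -0.03 for all genes. The 23 members outside the enzymes were divided, with 9 higher, 9 lower and a median of -0.01. In SCC25 no enzyme was higher and 3 were lower, beside 8.66% and 7.3% of all genes. In SQ20B 1 was higher and 3 lower, beside 18.4% and 14.9%. The lines thus also differed in how many genes were called over all genes.

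PGK1, which makes the first ATP of the pathway, gave control arrays of 11.61, 11.56 and 11.71 and CTX arrays of 12.83, 12.87 and 12.86 in SCC61, a 2.34-fold rise (1.23, SE 0.07, adjusted p = 1.84e-15). TPI1, which interconverts the triose phosphates, rose from 10.63, 10.62 and 10.67 to 11.91, 11.67 and 11.88 (1.18, SE 0.08, adjusted p = 3.51e-13). GPI, which turns glucose 6-phosphate into fructose 6-phosphate, rose from 10.64, 10.56 and 10.54 to 11.66, 11.47 and 11.68 (1.02, SE 0.09). All treated arrays of these genes lay above all controls.

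PGAM1, the phosphoglycerate mutase, rose by 0.92 in SCC61 from 11.67, 11.69 and 11.67 to 12.57, 12.56 and 12.65. LDHA, which reduces pyruvate to lactate, rose by 0.85 from 12.74, 12.70 and 12.67 to 13.53, 13.55 and 13.57. PKM, the last ATP-yielding step, rose by 0.83 from 10.90, 10.77 and 10.83 to 11.79, 11.49 and 11.71. The other PKM probe set, with a mean of 6.60 over the arrays, gave -0.17 in SCC61. The steps between, ENO1 (0.47), ALDOA (0.39) and GAPDH (0.22), were also higher, as were ENO2 (0.49) and PFKL (0.34), while PFKM, PFKP and ALDOC were not called. These bright probe sets lie near the top of the scale, and the 6 probe sets of PGK1 gave rises in SCC61 from 0.80 to 2.54.

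The entry to the pathway moved the other way in SCC61. HK2, the inducible hexokinase, had controls of 10.19, 10.34 and 10.06 and CTX arrays of 8.34, 8.38 and 8.47, a 3.47-fold fall (-1.80, SE 0.11, adjusted p = 6.5e-15). SLC2A1, the glucose transporter GLUT1, fell from 9.96, 9.89 and 9.71 to 8.88, 8.83 and 8.75 (-1.03, SE 0.14, adjusted p = 3.63e-07). SLC2A3, the transporter GLUT3, fell by 0.35 and HK1, the constitutive hexokinase, by 0.24. For HK2 the fall rests on the probe set used, since its other 2 sets, with means of 5.41 and 4.90 over the arrays, gave 0.60 and 0.92 in SCC61.

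**Figure D3:**
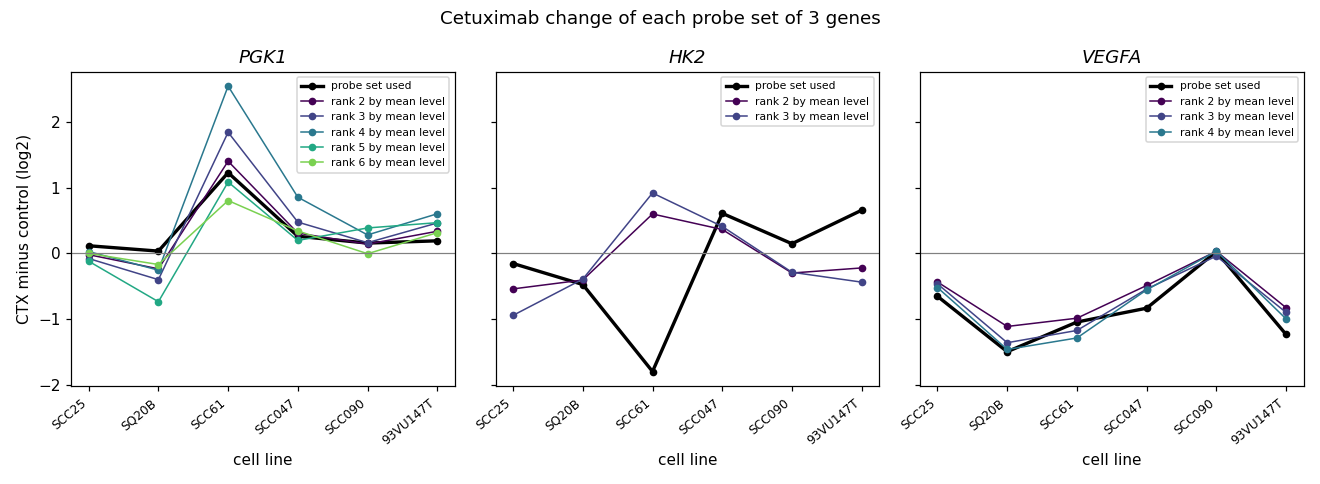
Lines join the CTX minus control difference (log2) of each probe set over 6 lines for PGK1 (6 probe sets), HK2 (3) and VEGFA (4), with the set used in black. The sets of PGK1 and VEGFA kept 1 direction in SCC61, while the set used for HK2 fell by 1.80 and the others gave 0.60 and 0.92.

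Tested as a difference from the mean of the other 5 lines, the SCC61 change was higher for 11 of 16 enzymes and lower for 2. Over all members it was higher for 17 and lower for 10, beside 22.6% and 15.3% of all genes. TPI1 (1.10 above the other lines, SE 0.09, adjusted p = 2.09e-11) and PGK1 (1.08, SE 0.08, adjusted p = 4.46e-13) led one end. HK2 (-1.95, SE 0.12, adjusted p = 1.32e-14) and ADM (-1.61, SE 0.08, adjusted p = 6.12e-16) led the other.

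The untreated levels of the enzymes in SCC61 were mixed in rank. Of the 16, 6 (GPI, TPI1, GAPDH, PGK1, PGAM1 and PKM) had their lowest untreated mean in SCC61, and none had its lowest treated mean there. Untreated TPI1 was 1.20 below the other 5 lines in SCC61 and PGK1 0.70 below, while HK2 was 2.10 above. The range of line means of TPI1 was 1.58 without and 0.47 with CTX, that of PGK1 0.81 and 0.45, and that of HK2 2.79 and 1.20. Over the enzymes, 12 of 16 had a narrower range with CTX, as did 14 of the 23 other members. The share over all genes was not counted. The untreated levels and the changes use the same control arrays, so the values are given side by side and no relation between them is read.

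SCC047 and 93VU147T, both HPV-positive, changed several enzymes by smaller amounts. In SCC047 7 of 16 enzymes were higher and 3 lower, beside 17.3% and 19% of all genes. In 93VU147T 9 were higher and 3 lower, beside 15.8% and 18.8%. The counts of lower enzymes in SCC047 and 93VU147T were thus near the shares of all genes. In SCC090, the other HPV-positive line, 0 of 16 enzymes were higher and 0 lower, beside 0.516% and 0.885% of all genes. LDHA rose by 0.68 in SCC047, from 12.39, 12.50 and 12.52 to 13.18, 13.07 and 13.20, and by 0.54 in 93VU147T, from 13.06, 13.02 and 12.90 to 13.58, 13.50 and 13.51. The arrays did not overlap in either line. HK2 was 0.61 and 0.66 higher, although the other HK2 probe sets gave -0.22 and -0.44 in 93VU147T. PGAM1 was 0.53 and 0.40 higher and PKM 0.29 and 0.50 higher.

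Other isoforms of the enzymes fell in some lines. ENO2, the neuronal enolase, fell by 0.70 in SCC047 and by 0.69 in 93VU147T, where ENO1 rose by 0.34 and 0.18. Its untreated means ran from 4.83 in SQ20B to 7.50 in SCC090, and levels under 5.13 lie below the median of all values and carry no detection call. ALDOC, the brain aldolase, fell by 0.78 in SCC047 from 7.75, 7.85 and 7.78 to 6.94, 7.09 and 7.02, and rose by 0.61 in SQ20B from 7.24, 7.03 and 7.50 to 7.90, 7.84 and 7.86. PFKM, the muscle phosphofructokinase, fell by 0.73 in 93VU147T, from 10.07, 10.02 and 9.93 to 9.30, 9.30 and 9.22, and by 0.52 in SCC25, and PFKP, the platelet form, by 0.35 and 0.24. In SQ20B HK2 fell by 0.47, ENO1 by 0.29 and PGAM1 by 0.24.

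**Figure D4:**
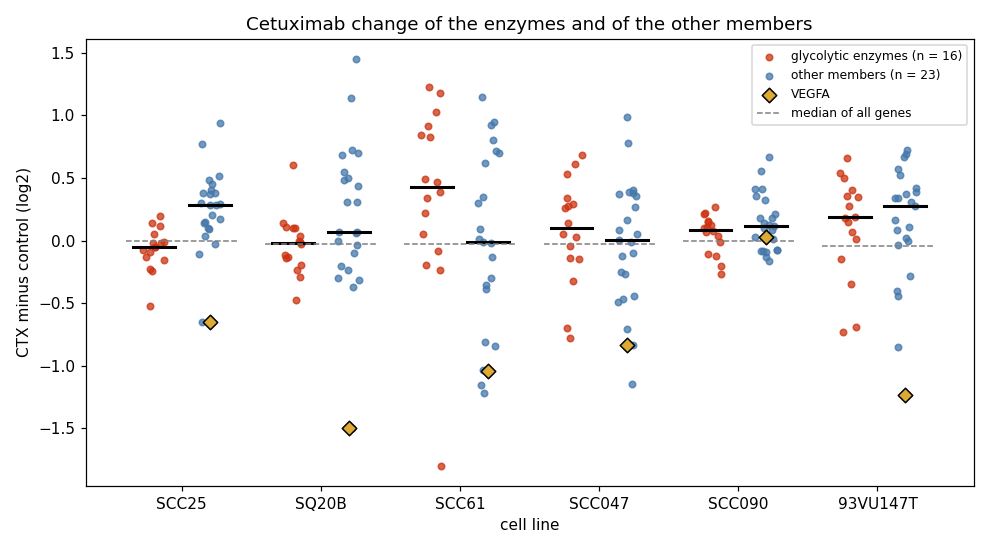
Points are genes, placed by CTX minus control difference (log2) in each line, with 16 glycolytic enzymes in red and the 23 other members in blue, VEGFA as a diamond, bars at each group's median and dashed lines at the median of all genes. The enzymes' median was 0.43 in SCC61 and near 0 in SCC25 and SQ20B, where the other members' medians were 0.29 and 0.07.

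SLC2A1 was called in 5 lines, but not in 1 direction. It rose in SCC25 from 10.63, 10.39 and 10.47 to 11.39, 11.15 and 11.26 (0.77, SE 0.14, adjusted p = 0.000206), in SCC047 by 0.41 and in 93VU147T by 0.42. In SCC090 the controls of 8.24, 9.13 and 9.31 were all below CTX arrays of 9.55, 9.49 and 9.65 (0.67, adjusted p = 0.0103). That rise was 0.34 without the first control array and was then not called. In SQ20B it was 0.07.

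The regulators of glycolysis, PFKFB3 and PFKFB4, which set the level of fructose 2,6-bisphosphate, and PDK1 and PDK3, which hold pyruvate out of mitochondria, were each higher in the mean (0.13 to 0.22), and none was called lower in a line, although PDK1 was at -0.23 in SQ20B and PDK3 at -0.13 in SCC090. PDK3 rose by 0.81 in SCC61 from 7.23, 7.21 and 7.22 to 7.98, 8.06 and 8.03, and by 0.48 in SQ20B. PDK1 rose by 0.62 in SCC61. PFKFB3 was 0.38 higher in SCC25 and 0.31 higher in both SQ20B and 93VU147T. PFKFB4 was 0.39 higher in SCC047 and 0.37 in 93VU147T. The other PFKFB4 probe set, with a mean of 5.34 over the arrays, gave -0.0036 in SCC047 and -0.20 in 93VU147T. The other PDK1 sets gave -0.54 and -0.22 in SQ20B. The calls here rest on the probe set used for each gene.

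The hypoxia regulators did not move as a block. Transcripts of HIF1A, the oxygen-regulated subunit, changed little, with 0.34 in 93VU147T and -0.30 in SCC61 the called values, and these arrays do not measure the protein. EGLN1 rose in SCC047 from 7.12, 6.84 and 6.90 to 7.87, 7.74 and 8.20 (0.99, SE 0.12, adjusted p = 1.13e-07), in 93VU147T by 0.73 and in SCC61 by 0.71. Its other 3 probe sets gave smaller values in SCC047, from -0.21 to 0.47. EGLN3, which is itself a HIF target, rose by 0.93 in SCC61 and was called in no other line. Its untreated mean in SCC61, 5.12, was the lowest of the 6 lines and just below 5.13, the median of all values.

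EPAS1, which encodes HIF-2alpha, rose by 0.72 in SQ20B, from 10.80, 10.70 and 10.77 to 11.56, 11.46 and 11.42. It was 0.56 higher in SCC090, and fell by 0.49 in SCC047 and by 0.39 in SCC61. Its other probe sets, with means of 6.56 and 3.70 over the arrays, gave 0.02 and 0.29 in SQ20B. The brighter of these gave -0.51 in SCC047 and -0.47 in SCC61. KDM3A, a histone demethylase, rose by 0.55 in SQ20B and by 0.40 in SCC25 and fell by 0.84 in SCC61, from 9.44, 9.51 and 9.31 to 8.55, 8.68 and 8.53. Both groups were apart there. MXI1, which opposes MYC at E-boxes, fell from 9.81, 9.90 and 9.71 to 8.53, 8.59 and 8.64 in SCC61 (-1.22, SE 0.11, adjusted p = 1.64e-10). It fell by 0.85 in 93VU147T and by 0.71 in SCC047, and rose in SQ20B from 8.23, 7.71 and 8.28 to 8.85, 8.66 and 8.76 (0.68). MYC itself, a gene of the EGFR output list, changed by -1.09 in SCC61, -1.49 in 93VU147T, -0.90 in SCC047 and -1.14 in SQ20B.

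Among the hypoxia targets, ADM, the vasodilator peptide adrenomedullin, had the widest range of change of the 39 genes. In SQ20B it rose from 9.15, 9.42 and 9.18 to 10.77, 10.64 and 10.70 (1.45, SE 0.08, adjusted p = 1.56e-15), and in SCC25 from 11.61, 11.47 and 11.55 to 12.49, 12.46 and 12.50 (0.94, SE 0.08, adjusted p = 7.68e-10). In SCC61 it fell from 12.68, 12.78 and 12.52 to 11.52, 11.48 and 11.52 (-1.15, SE 0.08, adjusted p = 7.52e-14). Groups were apart in each of these lines. It was 0.41 higher in SCC090 and 0.40 lower in 93VU147T.

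LOX, the lysyl oxidase that crosslinks collagen, rose in the 3 HPV-negative lines. The controls read 5.98, 5.14 and 6.07 and the CTX arrays 7.04, 6.78 and 6.79 in SQ20B (1.14, SE 0.17, adjusted p = 1.85e-06). They read 9.61, 9.64 and 9.55 against 10.58, 10.61 and 10.46 in SCC61 (0.95), and 11.23, 11.06 and 11.14 against 11.74, 11.61 and 11.63 in SCC25 (0.52). In SCC047 and 93VU147T it was 0.47 and 0.44 lower, and in SCC090 the change was 0.12 and not called. The SCC047 controls lay below 5.13, the median of all values, and those of 93VU147T above it. The SQ20B and 93VU147T controls overlapped. Of 6 fibroblast markers, which include collagens, 4 were higher in SCC25, 2 in SQ20B and 3 in SCC61 with none lower, and 2 were lower in SCC047 and 2 in 93VU147T. Their part in the LOX values was not tested.

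NDRG1, a stress-induced gene, fell in SCC047 from 10.25, 9.97 and 9.82 to 8.73, 8.89 and 8.99 (-1.15, SE 0.19, adjusted p = 1.32e-05) and in SCC61 by 0.81, and rose by 0.70 in SQ20B. BNIP3, a mitochondrial protein of mitophagy, rose in SCC61 from 8.95, 8.98 and 9.13 to 9.99, 10.19 and 10.30 (1.14, SE 0.16, adjusted p = 4.78e-07, and 1.17 by its other probe set), by 0.78 in SCC047 and by 0.53 in 93VU147T. Its paralogue BNIP3L was 0.45, 0.50 and 0.35 higher in SCC25, SQ20B and SCC61. CA12, a membrane carbonic anhydrase, rose by 0.70 in SCC61, 0.38 in SCC047 and 0.37 in SCC25, and fell by 0.31 in SQ20B and by 0.28 in 93VU147T. Of its 7 probe sets, 3 gave positive values in SCC047. NDRG1, BNIP3 and CA12 therefore each had a different set of lines in which they rose.

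ERO1A, the oxidase that supplies disulfide bonds in the endoplasmic reticulum, rose in 93VU147T from 7.87, 7.70 and 7.79 to 8.47, 8.46 and 8.50 (0.69, SE 0.10, adjusted p = 1.37e-06), and its other 2 probe sets gave 0.05 and 0.49. P4HA2 and P4HA1, collagen prolyl hydroxylases, were 0.58 and 0.34 higher in that line, and ANKRD37, a small HIF target, was 0.67 higher. In SQ20B ERO1A fell by 0.30 and ANKRD37 by 0.37, while P4HA1 and P4HA2 were 0.44 and 0.31 higher. Across the list, 18 of 39 genes were called higher in a line and lower in another, beside 25.9% of all genes. Every member was called in at least 1 line, but the share of all genes called in at least 1 line was not counted.

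In lists of further pathway genes, the calls in the mean are read against the 22.8% of all genes that were higher and the 23.1% that were lower. Of 24 other glycolysis genes 21 were measured, with 4 higher and 2 lower. The largest changes were in TIGAR (0.33), a phosphatase that slows glycolysis, the mitochondrial pyruvate carrier subunit MPC2 (0.26) and PDHB of pyruvate dehydrogenase (0.13). Of 28 other hypoxia genes 27 were measured, with 9 higher and 5 lower. The largest were in the collagen lysyl hydroxylase PLOD2 (0.57), the secreted stanniocalcin STC2 (-0.55) and the HIF antagonist CITED2 (0.52). The list medians were -0.01 and -0.03, against -0.02 for all genes.

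Untreated levels differed between the 6 lines for all 39 genes, beside 77.1% of all genes. The range between the lowest and the highest line mean was over 1 log2 unit for 32 of 39 (82.1%), beside 46.1% of all genes, many of which are dimmer. The median range was 1.32 for the enzymes and 2.09 for the hypoxia targets, against 0.90 over all genes. It was narrowest for GAPDH (0.58).

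LOX had the widest untreated range, 6.61 or 97.6-fold. It was 11.23, 11.06 and 11.14 in SCC25 and 9.61, 9.64 and 9.55 in SCC61, then 5.98, 5.14 and 6.07 in SQ20B and 5.32, 5.50 and 5.64 in 93VU147T, which overlapped. In SCC047 it was 4.74, 4.80 and 4.82 and in SCC090 4.28, 4.60 and 4.72. These levels carry no detection call, so the fold depends on a value below the median of all values. CA12 was next (4.27), from 10.01, 9.89 and 9.96 in SCC25 to 5.75, 5.64 and 5.65 in SCC047, with SQ20B close above at 5.93, 5.94 and 5.72. ADM ranged over 3.40, from SCC61 (12.68, 12.78 and 12.52) down to SQ20B (9.15, 9.42 and 9.18).

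ERO1A was 10.95, 11.03 and 10.89 in SCC25 and 7.87, 7.70 and 7.79 in 93VU147T, where it was 2.38 below the other lines. HK2 ranged over 2.79 from SCC61 down to SCC090, and SCC047, SCC090 and 93VU147T held its 3 lowest means. ENO2 was highest in SCC090, at 7.65, 7.32 and 7.52, with 93VU147T next at 6.93, 6.87 and 6.70. PFKFB3 (2.59), NDRG1 (2.58), EPAS1 (2.58) and EGLN1 (2.51) complete the 10 widest.

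**Figure D5:**
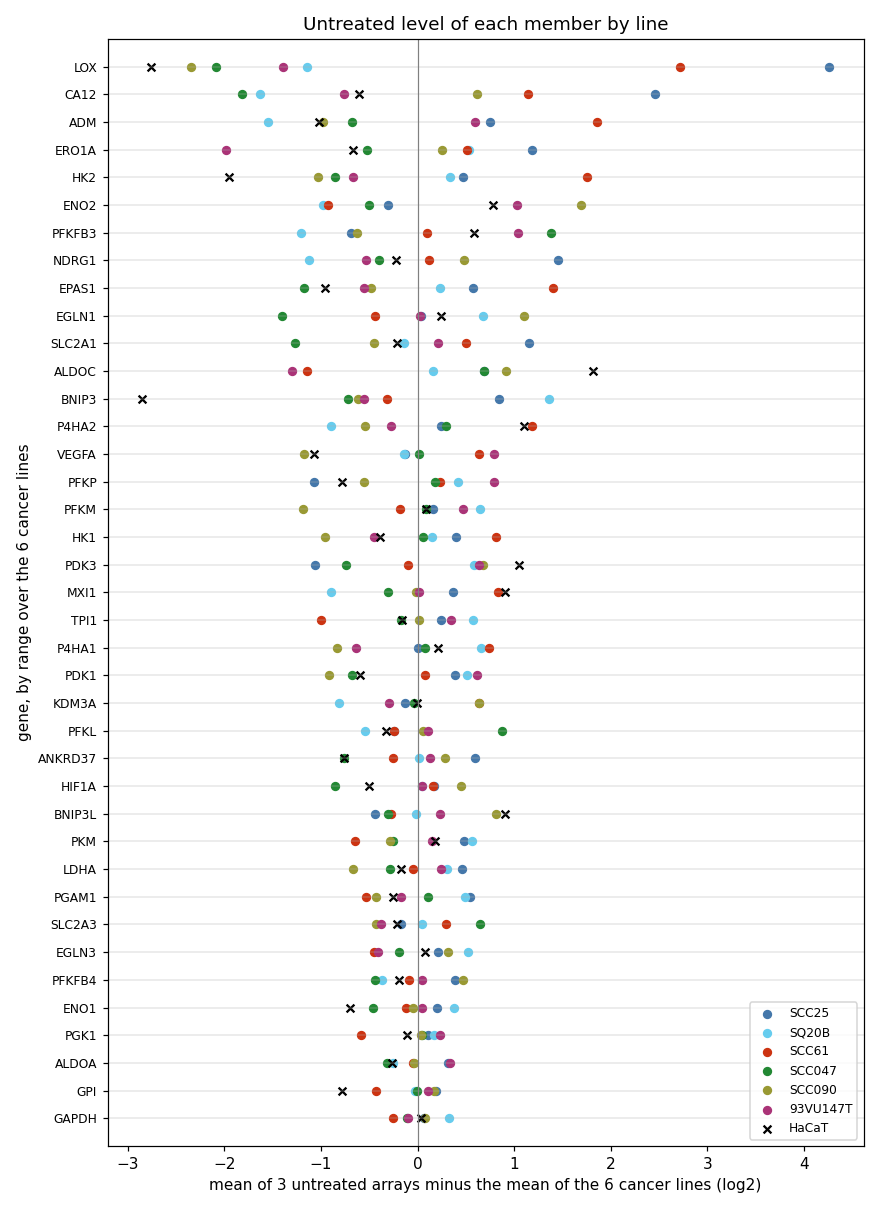
Points give, for each gene (rows, widest range at the top), the mean of 3 untreated arrays of a line minus the mean of the 6 cancer lines (log2), with HaCaT as a cross. LOX spanned 6.61 and GAPDH 0.58, and the HaCaT cross lay left of all 6 lines for BNIP3, HK2, LOX, GPI and ENO1.

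Against the mean of the other 5 lines, untreated SCC25 was higher for 26 of 39 genes and lower for 7, beside 22.7% and 25.3% of all genes. SCC047 was higher for 7 and lower for 24 (28.3% and 24.2% of all genes). SCC61 was divided, with 16 higher and 16 lower (23.8% and 30.5%), and among the 16 enzymes 3 were higher and 11 lower. SCC25 thus held the higher and SCC047 the lower levels of most of these genes.

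In untreated HaCaT cells, whose arrays form a scan batch of their own and of which 2, by their labels, may be 1 sample run again, 33 of 39 genes lay within the range of the untreated cancer arrays or overlapped it. BNIP3 (6.42, 6.58 and 6.45), HK2 (6.48, 6.60 and 6.40), LOX (4.11, 4.24 and 4.02), GPI (10.26, 10.25 and 10.17) and ENO1 (11.85, 11.88 and 11.91) were below every cancer array. ALDOC (8.98, 8.94 and 8.84) was above. HaCaT and scan batch cannot be told apart in these 6 genes. The share of all genes outside the range of the untreated cancer arrays was not counted.

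In CTX-treated SCC1 cells, 35 of 39 genes lay within or overlapped the range of the other treated arrays. VEGFA (7.97, 7.92 and 7.91) and ADM (9.22, 9.20 and 9.44) were below all of them, and EGLN3 (6.44, 6.62 and 6.98) and GAPDH (13.94, 13.96 and 13.91) above. Untreated SCC1 was not analysed here, so these are levels and not changes, and the line shares its scan batch with 1 other array. The share of all genes outside the range of the other treated arrays was not counted.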

How the data were processed

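RNA from HNSCC cell lines and HaCaT cells was hybridised to Affymetrix hgu133plus2.0 arrays, and 42 arrays in 14 groups of 3 were used. Log2 values for each probe set were deposited, which the authors' methods trace to fRMA, a procedure that corrects background, normalizes to a stored reference and summarises probes robustly. The batch method pSVA is named too, but its use on the deposited table is not given in the sources used here. Arrays carry no read depth, and their number limits the precision.

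Of 54675 probe sets, 41091 had 1 gene symbol in GEO's platform annotation, 1801 had several and 11721 had none listed. For each of 19775 genes the brightest set by its mean on 42 arrays was taken. For 27 of the 39 measured members there was more than 1 to choose from, and 5 members were read by a set that can cross-hybridise (ALDOA, CA12, GAPDH, PFKL and SLC2A3).

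A model of 12 group means was fitted to 36 arrays in limma 3.58.1 (R 4.3.3), leaving 24 residual degrees of freedom beside 6.86 of the prior. Benjamini-Hochberg adjustment ran over all genes, and a gene was called at an adjusted p under 0.05. Contrasts were CTX minus control in each line and in the mean, a test of equal change, a test of equal untreated level, and each line against the mean of the other 5. The difference of each gene from VEGFA was fitted on the same arrays. Members and lists were chosen with earlier results of these data known. Every member is accounted for, and values are given for VEGFA, the 10 largest mean changes, the 10 widest ranges of change and of untreated level, the 3 largest rises and falls of each line, and genes called in 1 direction in at least 5 lines. Others are named by role after their values were seen. The fit was tested on simulated data.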

Additional observations from a re-analysis of the deposited data

Results flagged for a closer look

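For 7 of the 39 genes cetuximab gave a called rise of at least 0.5 log2 units in 1 line or more and a called fall of at least that size in another, and limma's test of equal change across the 6 lines passed after adjustment over all genes. The share of all genes meeting this rule was not counted, so the count of 7 cannot be called unusual. Without the size limit, 18 members and 25.9% of all genes had calls in both directions, and the test of equal change passed for 59% of all genes. ADM rose by 1.45 in SQ20B and fell by 1.15 in SCC61 (adjusted p = 1.35e-17). HK2 rose by 0.66 in 93VU147T and fell by 1.80 in SCC61 (adjusted p = 5.28e-14), but with its second brightest probe set both values had the other sign (-0.22 and 0.60), and with the mean of its sets that in 93VU147T was -0.000828. MXI1 rose by 0.68 in SQ20B and fell by 1.22 in SCC61 (adjusted p = 2.01e-11).

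KDM3A rose by 0.55 in SQ20B and fell by 0.84 in SCC61 (adjusted p = 6.96e-09), and SLC2A1 rose by 0.77 in SCC25 and fell by 1.03 in SCC61 (adjusted p = 3.02e-08). NDRG1 rose by 0.70 in SQ20B and fell by 1.15 in SCC047 (adjusted p = 3.82e-07), and ALDOC rose by 0.61 in SQ20B and fell by 0.78 in SCC047 (adjusted p = 3.78e-05). The largest fall lay in SCC61 for 5 of the 7, and NDRG1 also fell there, by 0.81. MXI1 fell by 0.71 in SCC047 and by 0.85 in 93VU147T as well. Groups of 3 arrays are too small to test single arrays as outliers.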

How the results depend on the processing

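Centring array medians, quantile normalization, the scan batch as a covariate, a filter on dim genes, the probe set chosen by a ratio of median absolute deviations and leaving out cross-hybridising sets moved none of the counts of called members by over 1.5 times. With the second brightest probe set, 18 members were called in 93VU147T and 1 in SCC090, and called values changed sign for HK2 (0.60 in SCC61, -0.22 in 93VU147T), P4HA1 (-0.0605 in SCC61, -0.0205 in the mean), PFKP (0.0230 in the mean) and ANKRD37 (-0.15 in 93VU147T, -0.0288 in the mean), while PGK1 in SQ20B became a called -0.24. With the mean of all probe sets HK2 was -0.000828 in 93VU147T and PGK1 a called -0.29 in SQ20B. Many of these second sets are dim, and the cause was not tested. A minimum change of 0.5 left 5 members in SCC25, 9 in SQ20B, 20 in SCC61, 10 in SCC047 and 12 in 93VU147T, and 0 higher and 1 lower (VEGFA) in the mean, by construction. The mean changed sign without 1 line for ADM (-0.0667 without SQ20B), HK2 (0.16 without SCC61) and NDRG1 (0.22 without SCC047).

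Without single arrays, 7 to 15 members were called in SCC25 and 0 to 6 in SCC090, with 7 in SCC25 without its control replicate 3, and in SCC090 0 without control replicate 1, 1 without CTX replicate 3 and 6 without control replicate 3. The 18 same-numbered pairs of control and CTX arrays had correlated deviations of -0.15 to 0.32, 7 of them over 0.1, so the numbers were not taken as pairing, and with a replicate block 27 members were called in 93VU147T, 12 in SCC25 and 25 higher in the mean.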

Other observations

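TXNIP, a brake on glucose uptake from the list of other hypoxia genes that was singled out after its values were seen, changed with opposite signs in different lines. The SQ20B controls averaged 9.15 ± 0.14 and the CTX arrays 10.90 ± 0.15 (SD, n = 3 arrays each), a rise of 1.76 (SE 0.25, adjusted p = 1.37e-06 in limma). In SCC047 they averaged 11.70 ± 0.15 against 9.87 ± 0.17 (-1.83, SE 0.25, adjusted p = 6.03e-07), and it was 1.44 lower in SCC61 and 1.35 lower in 93VU147T. In SCC090 the controls read 8.20, 10.11 and 10.16, with the first array apart from the others, and the CTX arrays 10.62, 10.47 and 10.42. The same control array was the lowest of its 3 for SLC2A1, ALDOC, EPAS1, NDRG1 and VEGFA.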
